A study of Mus musculus with 4 samples.

Results

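The genes described here are 58 genes of DNA replication and S phase, the stretch of the cell cycle in which the genome is copied, and 57 of them are among the 13289 genes of the deposited count table. Fen1 was not analysed here. The genes were picked by name from a list of replication proteins, with earlier results of these data known. No value of theirs entered the rule itself. Their transcripts were counted by RNA-seq (polyadenylated RNA) in mouse cerebral cortex at embryonic day 15 (E15), in 2 control libraries (titled WT) and 2 libraries of a conditional knockout of Lhx2 (Lhx2cKO in the titles, Lhx2 cKO here). All 4 libraries came from fresh brain of the same age. The labels give no strain, allele, Cre driver, litter or sex, and do not say whether a library is 1 embryo or a pool, so p-values measure the spread between these libraries, which may be technical.

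Before a cell enters S phase, the origin recognition complex, Cdc6 and Cdt1 load the ring of Mcm2 to Mcm7 onto DNA, which is called licensing, and geminin (Gmnn) blocks further loading by binding Cdt1. The kinase made of Cdc7 and Dbf4, together with cyclin-dependent kinase, then recruits Cdc45 and the GINS complex to the ring, which becomes the working helicase of the fork. At the fork, primase and DNA polymerases copy the strands behind the helicase, the Pcna clamp holds the polymerases on DNA, and ribonucleotide reductase and thymidylate synthesis supply the building blocks. In the E15 cortex the cells that replicate DNA are mostly radial glia, the stem cells lining the ventricle, and the intermediate progenitors derived from them, while neurons have left the cell cycle.

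Many of these genes are textbook targets of E2F factors, and the promoter windows of the MCM genes carry the letters that E2F factors recognise to different degrees. RefSeq promoter windows (build GRCm38.p6, 250 bases before to 50 after a start) were found by symbol for 46 of the 57 genes. The letters TTTCCCGC, TTTGGCGC, TTTGCCGC and TTTCGCGC were searched on both strands, with overlapping matches counted separately, together with CCAAT, the letters bound by NF-Y. At least 1 E2F match was present for 18 of the 46 genes (39.1%), against 704 of 27025 genes with a window (2.6%). CCAAT was present for 28 of the 46 (60.9%) and for 41.1% of all genes with a window. The 27025 genes with a window were not limited to those of the count table, while the 46 genes were. The sequences below run up to the first annotated start of the gene, 5′ to 3′ on the strand of the gene, with both kinds of match in capitals; they show the subunit that fell most (Mcm2), 2 that fell less (Mcm3 and Mcm5) and 1 that did not pass the test (Mcm6).
Mcm2 (chr6:88898781-88898980, minus strand): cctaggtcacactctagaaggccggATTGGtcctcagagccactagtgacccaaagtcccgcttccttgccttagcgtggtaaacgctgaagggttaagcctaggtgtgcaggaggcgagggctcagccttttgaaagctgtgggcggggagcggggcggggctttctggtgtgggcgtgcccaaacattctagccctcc
Mcm3 (chr1:20820313-20820512, minus strand): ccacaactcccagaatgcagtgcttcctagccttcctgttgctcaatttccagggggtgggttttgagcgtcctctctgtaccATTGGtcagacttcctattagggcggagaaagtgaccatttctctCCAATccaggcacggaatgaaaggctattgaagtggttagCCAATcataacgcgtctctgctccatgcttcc
Mcm5 (chr8:75109309-75109467, plus strand): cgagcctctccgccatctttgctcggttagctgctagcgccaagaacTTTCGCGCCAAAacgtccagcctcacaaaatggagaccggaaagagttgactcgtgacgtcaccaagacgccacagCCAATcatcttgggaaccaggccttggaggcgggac
Mcm6 (chr1:128359706-128359905, minus strand): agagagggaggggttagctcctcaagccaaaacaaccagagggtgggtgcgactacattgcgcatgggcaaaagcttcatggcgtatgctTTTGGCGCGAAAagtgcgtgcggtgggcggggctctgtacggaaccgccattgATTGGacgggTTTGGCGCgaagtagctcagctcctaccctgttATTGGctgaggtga

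The Mcm6 sequence holds 3 E2F matches, of which the pair starting at -110 and -106 overlaps, and the Mcm5 sequence holds a like overlapping pair at -153 and -149, counted from the start on which the RefSeq window was placed. For Mcm5 another start is annotated further upstream; the printed sequence stops there and leaves out a CCAAT at -22. The Mcm2 window holds 0 matches to these 4 words. In Mcm3 the E2F matches lie just after the start. They are shown in 28 bases, with a site of Mcm7 (165 bases before 1 of its annotated starts) and sites of 3 further genes whose transcripts fell. A second Mcm7 match, at 17 after that start, is not printed. The 3 genes were picked as ones that fell: of all 18 genes with a match 6 fell, and of 28 without a match 11 fell. Only E2F matches are in capitals here.
Mcm3 (chr1:20820266-20820293, minus strand): GCGGGAAAacttgggaagtTTTGGCGCc
Mcm7 (chr5:138172031-138172058, minus strand): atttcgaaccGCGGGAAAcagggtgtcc
Pole2 (chr12:69228163-69228190, minus strand): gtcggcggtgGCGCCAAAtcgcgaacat
Clspn (chr4:126556991-126557018, plus strand): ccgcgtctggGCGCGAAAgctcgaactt
E2f2 (chr4:136172296-136172323, plus strand): aatttggcggcatatagTTTGGCGCtaa

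Transcripts of 22 of the 57 genes fell in Lhx2 cKO and those of 0 rose, at an adjusted p under 0.05 in edgeR's quasi-likelihood test over all 13288 genes tested. Over all genes, 9.17% were called lower and 11.6% higher. For the rise, 0 of the 57 genes were called by DESeq2 or limma-voom and 0 had an unadjusted p under 0.05. DESeq2 called 18 of the 22 falls, with 7.34% of all genes lower and 8.99% higher, and limma-voom called all 22, with 9.13% lower. Left-out libraries changed the count to 16 without control 1 (background 5.98%), 18 without control 2 (8.12%), 21 without Lhx2 cKO 1 (7.53%) and 15 without Lhx2 cKO 2 (5.78%). With other scalings, filters or a replicate block the count stayed at 22, over backgrounds of 9.38% (RLE factors), 9.48% (upper-quartile factors), 9.23% (library totals), 9.17% (no filter), 9.36% (mean count of at least 50) and 9.57% (block). The median log2 fold change over the 57 genes was -0.33, against 0.003 over all genes tested, and 53 of the 57 estimates were below 0. Both Lhx2 cKO libraries lay below both control libraries for 42 of the 57 genes, where 29.1% of all genes did so. They lay above both for 2, where 30.2% of all genes did so, and the libraries overlapped for 13. In this tissue-level RNA, fewer cycling cells and less RNA per cycling cell cannot be told apart.

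**Figure D1:**
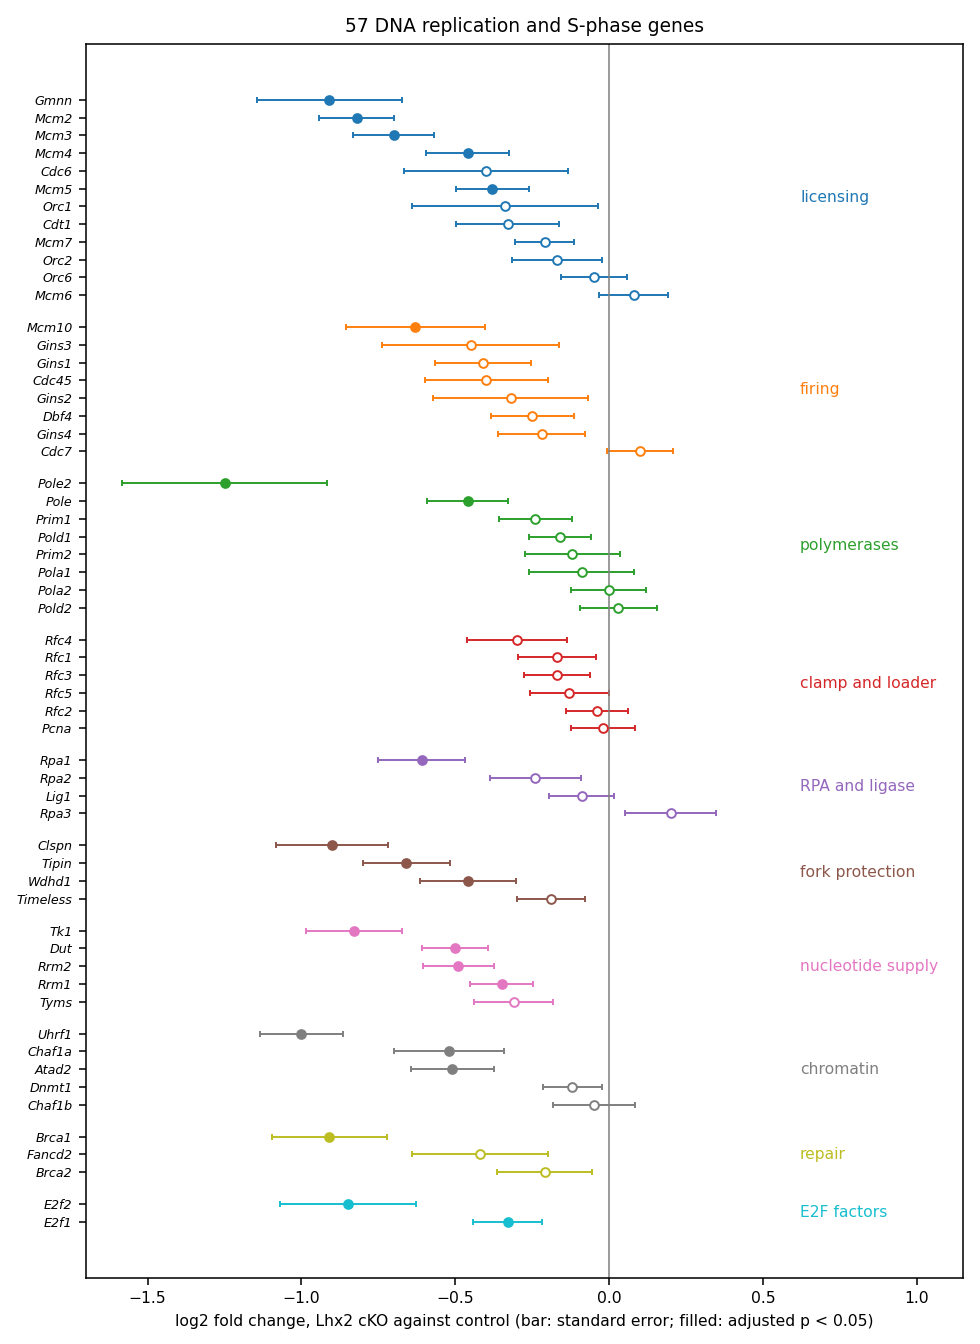
Horizontal axis, log2 fold change between Lhx2 cKO and control libraries, for each of the 57 genes, grouped by role, with the standard error as a bar; filled points have an adjusted p under 0.05 in edgeR. The 22 filled points lie between -1.25 (Pole2) and -0.33 (E2f1), and the clamp and loader genes have no filled point.

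The genes fall into 3 main subgroups by role. Of 20 origin genes (licensing and firing), 6 fell, with a median log2 fold change of -0.36. Of 22 fork genes, 6 fell and the median was -0.17. Of 5 nucleotide supply genes, 4 fell and the median was -0.49. Levels are given in CPM, the usual unit that divides the reads of a gene by the size of its library. Summed over its genes, nucleotide supply stood at 173 and 182 CPM in control and 130 and 129 CPM in Lhx2 cKO, or 73.0% of control. The origin sum went from 484 and 480 CPM to 416 and 388 CPM (83.4%), and the fork sum from 591 and 582 CPM to 531 and 502 CPM (88.0%). The ratio of nucleotide supply to fork counts, which does not depend on how libraries are scaled, was 0.293 and 0.312 in control against 0.244 and 0.258 in Lhx2 cKO. The ratio of origin to fork counts was 0.819 and 0.824 against 0.783 and 0.773. Neither pair of groups overlapped. Such separation is common with 2 libraries against 2: among single genes, 29.1% lay below both controls in both Lhx2 cKO libraries and 30.2% above. These subgroup values are descriptions, and no test was run over a subgroup. Without Lhx2 cKO 2 the medians were -0.33 for origin, -0.19 for fork and -0.42 for nucleotide supply, in the same order.

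**Figure D2:**
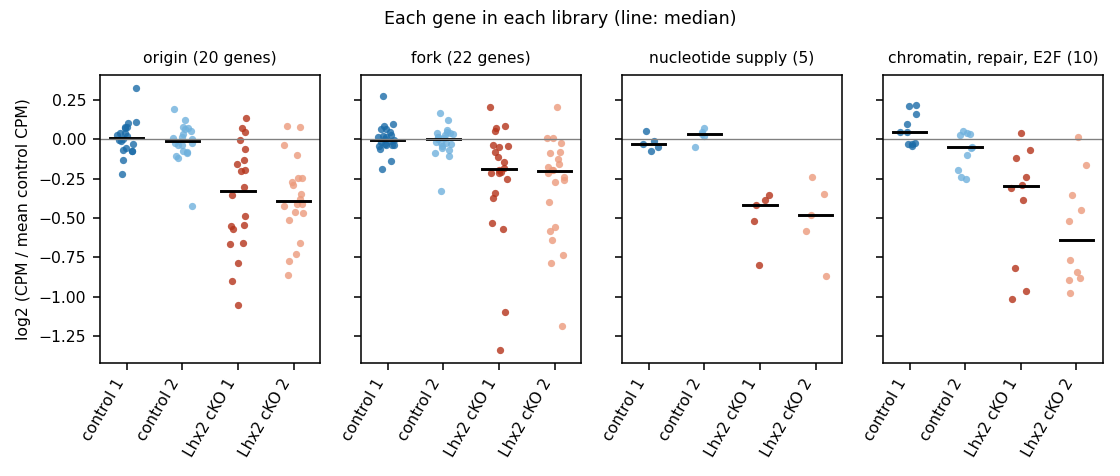
Each point is 1 gene in 1 library, as log2 of its CPM over its mean control CPM (vertical axis), for the origin, fork, nucleotide supply and remaining genes; lines are medians. Points of both Lhx2 cKO libraries lie mostly below 0, with the lowest values in the fork panel belonging to Pole2.

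In licensing, 5 of 12 genes fell and 7 did not pass the test. Mcm2, a subunit of the helicase ring (ENSMUSG00000002870.9), was at 30.9 and 32.3 CPM in control and 18.3 and 17.4 CPM in Lhx2 cKO. The level fell from 31.6 ± 0.99 to 17.8 ± 0.616 CPM (SD, n = 2); log2 fold change -0.82, SE 0.122, adjusted p 1.83e-06. Mcm3, another subunit of the ring, was at 25.7 and 24.4 CPM in control and 15.8 and 15.1 CPM in Lhx2 cKO (log2 fold change -0.70, SE 0.132, adjusted p 0.000101). Both genes were separated between groups by far more than their replicates differed. Gmnn, the inhibitor of Cdt1, was at 7.3 and 6.56 CPM in control and 3.34 and 4.05 CPM in Lhx2 cKO (log2 fold change -0.91, SE 0.236, adjusted p 0.00416). The remaining calls were Mcm4 at -0.46 (adjusted p 0.0108) and Mcm5 at -0.38 (adjusted p 0.0173). Mcm4 lost its call without control 1 (adjusted p 0.154) or without Lhx2 cKO 1 (0.0956), and Mcm5 without control 1 (0.0958) or without Lhx2 cKO 2 (0.193).

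The other licensing genes did not pass. Mcm6 was at 29.1 and 32.4 CPM in control and 32.2 and 32.6 CPM in Lhx2 cKO, with overlapping groups and a log2 fold change of 0.08 (95% interval -0.15 to 0.30, adjusted p 0.69). Mcm7, the subunit with the highest level per length, was at 138 and 134 CPM in control and 124 and 111 CPM in Lhx2 cKO (log2 fold change -0.21, SE 0.0949, adjusted p 0.109), and its counts are uncertain because its exons overlap Ap4m1 and Cops6 on the opposite strand. Orc6, a subunit of the origin recognition complex, was at 37.7 and 35.8 CPM in control and 36.6 and 34.2 CPM in Lhx2 cKO (log2 fold change -0.05, SE 0.107, adjusted p 0.776). Orc6, Orc2 and Orc1 each share exonic bases with a gene on the other strand (Vps35, Nif3l1 and Gm12743), which makes their counts uncertain too. The log2 fold change was -0.17 for Orc2 (adjusted p 0.44) and -0.34 for Orc1 (0.464). The loaders Cdc6 (-0.40, adjusted p 0.322) and Cdt1 (-0.33, adjusted p 0.166) were lower in estimate only. In Cdt1 the Lhx2 cKO libraries differed, with 14 and 9.23 CPM, and without Lhx2 cKO 1 the adjusted p was 0.0107.

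Because the 6 Mcm proteins work as one ring, their transcripts were compared with each other. Levels between genes are given per kilobase, with the length of the longest coding transcript in GENCODE M21, since the deposited gene lengths are larger for 5 of the 6 (6956 bases for Mcm2, where that transcript has 3371). On this scale of level per length, Mcm2 made up 10.5% and 11.3% of the summed level of the 6 genes in control against 7.59% and 7.77% in Lhx2 cKO. Mcm3 went from 9.73% and 9.49% to 7.31% and 7.48%. The share of Mcm6 went the other way, from 7.69% and 8.75% to 10.3% and 11.3%, and that of Mcm7 from 53.7% and 53.1% to 58.5% and 56.3%. Shares of a common sum can rise without a rise in level: the log2 fold change was 0.08 for Mcm6 and -0.21 for Mcm7. Mcm4 went from 8.01% and 7.1% to 6.2% and 7.52%, with overlap, and Mcm5 from 10.4% and 10.3% to 10.1% and 9.65%. With the deposited lengths the mean share of Mcm2 was 7.26% in control and 5.07% in Lhx2 cKO, and that of Mcm6 was 10.5% and 13.7%. The ratio of Mcm2 to Mcm6 counts, chosen after the values were seen, was 1.06 and 0.998 in control against 0.568 and 0.533 in Lhx2 cKO. The groups did not overlap, and the exact two-sided permutation test gave p = 0.333, the smallest that 2 libraries against 2 allow. Of 18 such ratios between partner genes, all picked after the values were seen, none could reach 0.05 in this design.

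**Figure D3:**
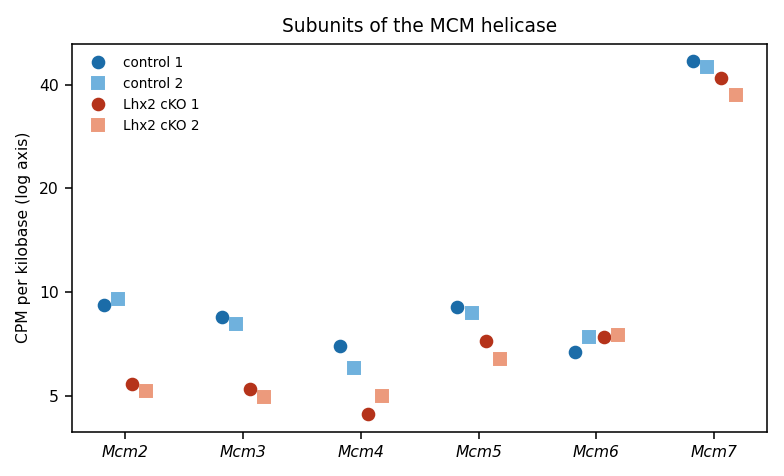
Level of each Mcm transcript in each library, as CPM per kilobase of the longest coding transcript (vertical log axis). The 2 Lhx2 cKO points of Mcm2 and Mcm3 lie between 4.97 and 5.42, below the control points between 8.07 and 9.58, while the points of Mcm6 lie together between 6.69 and 7.50.

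Among firing genes 1 of 8 fell (12.5%), a share near the 9.17% of all genes called lower. Mcm10, which helps to activate the loaded helicase, was at 6.89 and 7.56 CPM in control and 3.87 and 5.44 CPM in Lhx2 cKO (log2 fold change -0.63, SE 0.225, adjusted p 0.0389). That call was lost in DESeq2 (adjusted p 0.0975), without control 1 (0.0675), without control 2 (0.169) and without Lhx2 cKO 1 (0.314). Cdc45, which joins the ring at firing, was at 7.84 and 8.68 CPM in control and 5.67 and 6.83 CPM in Lhx2 cKO (log2 fold change -0.40, SE 0.2, adjusted p 0.159), and it shares 209 exonic bases with Ufd1 on the other strand. Cdc7, the kinase, was at 34.6 and 35.2 CPM in control and 38.3 and 36.8 CPM in Lhx2 cKO (log2 fold change 0.10, SE 0.107, adjusted p 0.545), with both Lhx2 cKO libraries above both controls, while its activator Dbf4 was at 21.3 and 28.3 against 22.2 and 19.5 CPM and -0.25 on the log2 scale (adjusted p 0.195). Without control 1 the adjusted p of Dbf4 was 0.0348, at a log2 fold change of -0.45.

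The 4 GINS subunits had log2 fold changes between -0.45 (Gins3) and -0.22 (Gins4), and 0 of them were called by edgeR, DESeq2 or limma-voom. Over all genes, edgeR called 9.17% lower and 11.6% higher, shares that give few calls among 4 genes. An unadjusted p under 0.05 was seen for 1 subunit. That 1 was Gins1, at 14.3 and 17.1 CPM in control and 12.3 and 11.4 CPM in Lhx2 cKO (log2 fold change -0.41, SE 0.155, adjusted p 0.0552), and it reached an adjusted p of 0.0381 without control 1. Gins2 ran at 5.16 and 5.56 against 3.38 and 5.22 CPM (adjusted p 0.413) and shares 2758 exonic bases with Gse1 on the other strand. Summed, the 4 genes stood at 80.2% of control. Single estimates of a low-count complex such as this one are wide: the 95% interval of Gins3 was -1.03 to 0.13.

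At the fork, 2 of 8 polymerase and primase genes fell, both of polymerase epsilon. Pole, the catalytic subunit of the leading-strand polymerase epsilon, was at 23.7 and 24.9 CPM in control and 19.2 and 16.2 CPM in Lhx2 cKO (log2 fold change -0.46, SE 0.132, adjusted p 0.00966). Pole2, its second subunit, was at 3.71 and 3.8 CPM in control and 1.49 and 1.65 CPM in Lhx2 cKO (log2 fold change -1.25, SE 0.332, adjusted p 0.00493) and had the largest fall among the 57 genes. Pole lost its call without control 2 (adjusted p 0.0638) and without Lhx2 cKO 2 (0.161), and Pole2 kept it without each library. Pole2 shares 245 exonic bases with Gm49384 on the same strand and Pole 78 with Gm15792 on the other, so both counts are uncertain. Polymerase delta did not pass: Pold1, its catalytic subunit, was at -0.16 (adjusted p 0.281) and Pold2, which supports it, at 22.1 and 23.4 CPM in control and 23.6 and 22.9 CPM in Lhx2 cKO (95% interval of the log2 fold change -0.22 to 0.28, adjusted p 0.905). In the primase complex, which starts each strand, Prim1 was at 32 and 27.8 CPM in control and 25.8 and 24.8 CPM in Lhx2 cKO (log2 fold change -0.24, SE 0.118, adjusted p 0.149) and Pola2 at 25.2 and 24.5 CPM in control and 26.2 and 23.5 CPM in Lhx2 cKO (log2 fold change -0.002, SE 0.122, adjusted p 0.994). Pola1 was at -0.09 and Prim2 at -0.12 on the log2 scale.

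The clamp and its loader had 0 of 6 genes called in either direction by edgeR, DESeq2 or limma-voom, and 0 had an unadjusted p under 0.05. Over all genes, edgeR called 9.17% lower and 11.6% higher, shares that give few calls in a list of 6. Pcna, the sliding clamp and a common proliferation marker, was at 43.2 and 43.2 CPM in control and 41.9 and 43.4 CPM in Lhx2 cKO. Its log2 fold change was -0.02 with a 95% interval of -0.23 to 0.19 (adjusted p 0.928), an interval that leaves out a fall as large as that of Mcm2 or Tk1. Pcna has 2 annotated pseudogenes in M21, Pcna-ps1 and Pcna-ps2, and whether reads were shared with them is not stated. Among the loader subunits, Rfc4 was at 12.5 and 13.2 CPM in control and 11.1 and 9.71 CPM in Lhx2 cKO (log2 fold change -0.30, SE 0.163, adjusted p 0.199), Rfc3 at 40.1 and 36.6 against 34.7 and 33.6 CPM (adjusted p 0.291) and Rfc1 at 25 and 22.2 against 20.8 and 21.2 CPM (adjusted p 0.375). Rfc2 was at 70.7 and 71.9 against 75.4 and 63.2 CPM (adjusted p 0.822) with overlapping groups, and Rfc5 was at -0.13 on the log2 scale. Rfc2, Rfc4 and Rfc5 share exonic bases with Lat2, Eif4a2 and Wsb2 on the other strand, and their counts are uncertain.

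Replication protein A coats the single strands that the helicase exposes, and 1 of its 3 subunits was called. Rpa1 was at 34.4 and 22.7 CPM in control and 19.2 and 18.3 CPM in Lhx2 cKO (log2 fold change -0.61, SE 0.141, adjusted p 0.00139). Its control libraries differed by more than the distance from control 2 to Lhx2 cKO, and without control 1 the log2 fold change was -0.29 (adjusted p 0.284). Rpa2 was at 16.6 and 15.3 CPM in control and 13.7 and 13.3 CPM in Lhx2 cKO (log2 fold change -0.24, SE 0.149, adjusted p 0.275). Rpa3 was at 13.3 and 14.5 CPM in control and 16 and 16 CPM in Lhx2 cKO (log2 fold change 0.20, SE 0.148, adjusted p 0.368), with both Lhx2 cKO libraries above both controls. Lig1, the ligase that seals the pieces of the lagging strand, was at 39.8 and 37.4 CPM in control and 37.3 and 35.4 CPM in Lhx2 cKO (log2 fold change -0.09, SE 0.106, adjusted p 0.626), and it overlaps Zswim9 on the other strand.

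Of 4 genes that protect the fork, 3 fell. Clspn (claspin), which links the fork to the checkpoint kinase Chk1, was at 12.5 and 12.2 CPM in control and 5.8 and 7.44 CPM in Lhx2 cKO (log2 fold change -0.90, SE 0.182, adjusted p 0.000245). Tipin, the partner of Timeless in the complex that steadies the fork, was at 21.5 and 22.7 CPM in control and 15.3 and 12.8 CPM in Lhx2 cKO (log2 fold change -0.66, SE 0.141, adjusted p 0.000514). Timeless itself was at 35.8 and 42.9 CPM in control and 34.4 and 34.4 CPM in Lhx2 cKO (log2 fold change -0.19, SE 0.11, adjusted p 0.225), and the ratio of Tipin to Timeless counts was 0.601 and 0.528 in control against 0.443 and 0.370 in Lhx2 cKO, without overlap (exact permutation p = 0.333, the smallest possible). Wdhd1, which couples the helicase to polymerase alpha, was at 15 and 15.6 CPM in control and 11.8 and 10.4 CPM in Lhx2 cKO (log2 fold change -0.46, SE 0.156, adjusted p 0.0289). The Wdhd1 call was lost in DESeq2 (adjusted p 0.0689), without control 1 (0.069), without control 2 (0.12) and without Lhx2 cKO 2 (0.229). Timeless and Wdhd1 overlap noncoding genes on the other strand.

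Nucleotide supply had the largest share of calls among the 3 main subgroups, 4 of 5. Tk1, the thymidine kinase whose protein is made in S phase, fell most: it was at 17.6 and 16.4 CPM in control and 9.76 and 9.32 CPM in Lhx2 cKO, a mean of 56.2% of control (log2 fold change -0.83, SE 0.156, adjusted p 8.96e-05). Its exons share 83 bases with Afmid on the other strand. Dut, which removes dUTP so that uracil is kept out of DNA, was at 42.8 and 47.3 CPM in control and 31.4 and 32.2 CPM in Lhx2 cKO (log2 fold change -0.50, SE 0.107, adjusted p 0.000464). Rrm2, the S-phase subunit of ribonucleotide reductase, was at 35.1 and 37.5 CPM in control and 27.2 and 24.2 CPM in Lhx2 cKO (log2 fold change -0.49, SE 0.114, adjusted p 0.00118). Rrm1, the larger subunit, was at 53.7 and 56.2 CPM in control and 42.9 and 43.1 CPM in Lhx2 cKO (log2 fold change -0.35, SE 0.101, adjusted p 0.00939). Tyms, thymidylate synthase, was at 24 and 24.5 CPM in control and 18.5 and 20.5 CPM in Lhx2 cKO and did not pass (log2 fold change -0.31, SE 0.128, adjusted p 0.0802), and it has an annotated pseudogene, Tyms-ps. For all 5 genes both Lhx2 cKO libraries lay below both controls, where 29.1% of all genes did so. The call of Rrm1 was lost without control 2 (adjusted p 0.0612) and without Lhx2 cKO 2 (0.0554), while Tk1, Dut and Rrm2 kept theirs without each library.

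**Figure D4:**
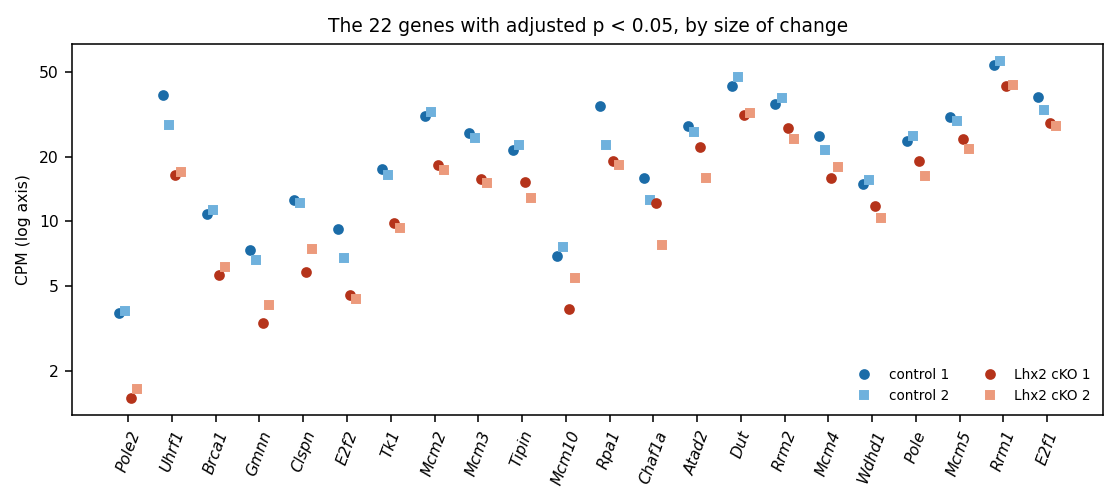
CPM in each library (vertical log axis) of the 22 genes with an adjusted p under 0.05 in edgeR, from the largest fall at the left to the smallest at the right. Both Lhx2 cKO points lie below both control points for every gene shown, where 29.1% of all genes do so. The genes were chosen as called lower in these same libraries, so this separation is no added support. Rpa1 and Uhrf1 have control points far apart.

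Of the 5 genes that rebuild chromatin or copy DNA methylation behind the fork, 3 fell. Uhrf1, which brings Dnmt1 to newly copied DNA, was at 38.8 and 28 CPM in control and 16.5 and 17 CPM in Lhx2 cKO (log2 fold change -1.0, SE 0.134, adjusted p 2.19e-07). Its control libraries differed, and without control 1 the log2 fold change was -0.76 (adjusted p 0.000108). Dnmt1, the methyltransferase itself, was at 161 and 172 CPM in control and 158 and 148 CPM in Lhx2 cKO (log2 fold change -0.12, SE 0.0948, adjusted p 0.413), so that the ratio of Uhrf1 to Dnmt1 counts went from 0.241 and 0.163 to 0.104 and 0.114. Atad2, a chromatin ATPase expressed in S phase, was at 27.9 and 26 CPM in control and 22.1 and 15.9 CPM in Lhx2 cKO (log2 fold change -0.51, SE 0.135, adjusted p 0.00521), and without Lhx2 cKO 2 its log2 fold change was -0.29 (adjusted p 0.237). In chromatin assembly factor 1, Chaf1a was at 16 and 12.5 CPM in control and 12.1 and 7.75 CPM in Lhx2 cKO (log2 fold change -0.52, SE 0.178, adjusted p 0.0308) and Chaf1b at 20 and 20.8 CPM in control and 18.8 and 20.6 CPM in Lhx2 cKO (log2 fold change -0.05, SE 0.132, adjusted p 0.833). Chaf1a shares 4648 exonic bases with Ubxn6 on the other strand, and its call was lost in DESeq2 (adjusted p 0.109), without control 1 (-0.35 on the log2 scale, 0.302) and without Lhx2 cKO 2 (-0.24, 0.522).

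Of the 3 repair genes that guard stalled forks, Brca1 fell, with 10.8 and 11.3 CPM in control and 5.63 and 6.14 CPM in Lhx2 cKO (log2 fold change -0.91, SE 0.187, adjusted p 0.000325). Brca2 was at 18.5 and 17.3 CPM in control and 18.4 and 12.5 CPM in Lhx2 cKO (log2 fold change -0.21, SE 0.154, adjusted p 0.364), and it was low in Lhx2 cKO 2 alone: without Lhx2 cKO 1 the log2 fold change was -0.51 (adjusted p 0.0369) and without Lhx2 cKO 2 it was 0.03. Fancd2 was at 6.39 and 6.68 CPM in control and 5.01 and 4.79 CPM in Lhx2 cKO (log2 fold change -0.42, SE 0.222, adjusted p 0.192). Brca2 and Fancd2 each share exonic bases with a gene on the other strand.

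Both E2F activators on the list fell. E2f2 was at 9.24 and 6.76 CPM in control and 4.53 and 4.31 CPM in Lhx2 cKO (log2 fold change -0.85, SE 0.221, adjusted p 0.00399) and E2f1 at 38 and 33.2 CPM in control and 28.7 and 27.9 CPM in Lhx2 cKO (log2 fold change -0.33, SE 0.112, adjusted p 0.0304). The call of E2f1 was lost in DESeq2 (adjusted p 0.0803), without control 1 (0.298), without Lhx2 cKO 1 (0.0674) and without Lhx2 cKO 2 (0.146), and that of E2f2 without control 1 (0.146). Of the other E2F genes, E2f3 fell (log2 fold change -0.41, adjusted p 0.0165), and E2f4 (-0.27), E2f5 (0.002), E2f6 (-0.30), E2f7 (-0.07) and E2f8 (-0.33) did not pass. Of the 18 genes with an E2F match in the promoter window, 6 fell (median log2 fold change -0.34), and of the 28 with a window and no match, 11 fell (-0.28). A match is a description of letters and not of binding.

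In the authors' deposited table the same 22 genes have an adjusted p under 0.05, all with a lower level in Lhx2 cKO, where 9.38% of its genes do. Its mark for a change downward is stricter, and 12 of the 22 carry it. The marked genes have log2 fold changes there of -0.61 (Rpa1) or lower, and the unmarked ones of -0.53 (Chaf1a) or higher. The share of all genes with this mark is not given here, so the 12 have no background.

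Beyond these genes, a wider list of 91 further genes of replication, nucleotide metabolism, replication-linked chromatin, repair and E2F control had 18 called lower (19.8%, against 9.17% of all genes) and 0 higher, with a median log2 fold change of -0.23. DESeq2 called 13 of the 91 lower and limma-voom 17. For the rise, both called 0 and 0 had an unadjusted p under 0.05. With 1 library left out, the count of falls was 11 without control 1 (5.98% of all genes), 8 without control 2 (8.12%), 15 without Lhx2 cKO 1 (7.53%) and 9 without Lhx2 cKO 2 (5.78%). Among the smallest p values were those of Fanca, of the Fanconi anaemia core complex, at 16.7 and 18.1 CPM in control and 11.6 and 8.4 CPM in Lhx2 cKO (log2 fold change -0.80, SE 0.162, adjusted p 0.000249), Top1, the topoisomerase that relieves twist ahead of the fork, at 186 and 172 against 137 and 123 CPM (-0.46), and Cdca7 at 31.1 and 31.4 against 22.2 and 21.5 CPM (-0.52). Fanca shares exonic bases with Zfp276 on the other strand. Within the wider list, 5 of 10 chromatin genes fell, with a median of -0.33, and 1 of 20 nucleotide genes, with a median of -0.09. In the other parts, 3 of 12 origin, 2 of 17 fork, 3 of 17 repair and 4 of 15 E2F control genes fell. No test compared these lists.

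Marker genes of other phases and cell types changed too, some lists downward and others upward, and their part in the result was not tested. Of 20 genes of G2 and mitosis, 16 fell, with a median log2 fold change of -0.65 and a summed level of 589 and 665 CPM in control against 381 and 375 CPM in Lhx2 cKO, or 60.3% of control. Mki67 was at -0.87 and Top2a at -0.86. Of 13 radial glia markers, 6 fell and 1 rose. Their sum was 945 and 1004 CPM in control against 892 and 862 CPM in Lhx2 cKO (90.0%), with Pax6 at -1.24 and Notch1 at -0.72. The marker that rose was Slc1a3 (0.27, adjusted p 0.0425), and DESeq2 called 0 of these markers higher. Hes5 (0.47), Vim (0.20) and Fabp7 (0.16) did not pass but had both Lhx2 cKO libraries above both controls. Over all genes, 30.2% did so. Of 10 intermediate progenitor markers, 6 fell. Their sum was 1188 and 1153 CPM in control against 798 and 792 CPM in Lhx2 cKO (67.9%), with Eomes at -1.66 and Neurog1 at -2.38. Of 12 neuronal markers, 3 rose and 2 fell, and their sum stood at 105% of control, with a median log2 fold change of 0.06. Syt1 was at 0.83 and Stmn2 at 0.60, and the falls were Rbfox3 (-0.43, adjusted p 0.00106) and Neurod6 (-0.32, adjusted p 0.0212). Slc1a3, Hes5, Vim, Fabp7, Rbfox3 and Neurod6 were named after their values were seen. Markers of oligodendrocyte precursors (5 of 7 rose, Egfr 2.80, Olig1 1.26), microglia (9 of 10, C1qb 1.35, C1qc 1.40) and endothelium (6 of 7, Cldn5 0.70, Cdh5 0.72) were higher, with sums at 168%, 215% and 151% of control. Of 7 erythroid genes 5 fell and 1 rose (Hbb-bt -1.01, Alas2 -0.82). No marker was at 0 counts in any library.

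**Figure D5:**
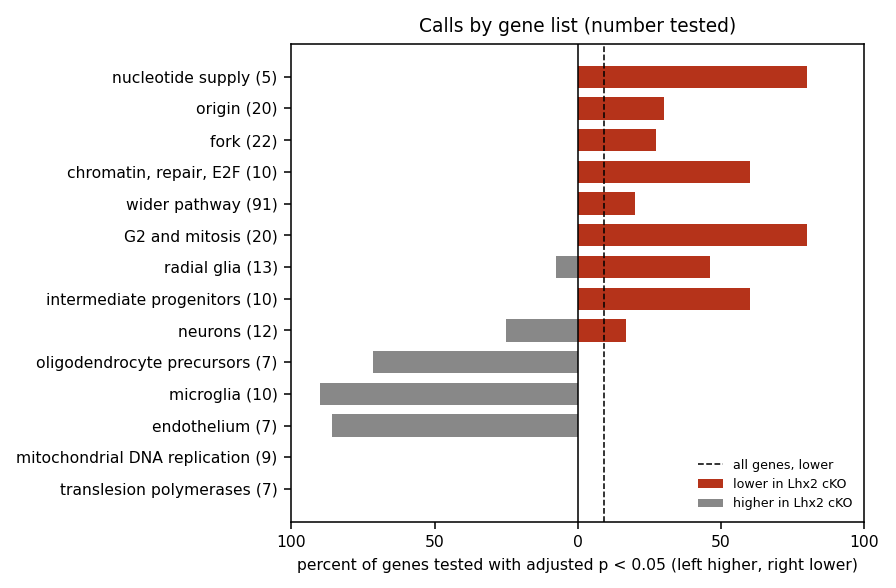
Percent of the tested genes of each list with an adjusted p under 0.05 in edgeR, lower in Lhx2 cKO to the right and higher to the left; the dashed line is the share of all genes called lower, 9.17%. Nucleotide supply and G2 and mitosis both reach 80.0% lower, and the lists of mitochondrial DNA replication and translesion polymerases have no bar. Those 2 lists were added after the values were seen. Cohesin genes, added likewise (3 of 12 lower), and erythroid genes (5 of 7 lower, 1 higher) are not drawn.

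The targeted gene and the libraries were checked against the labels. Lhx2, a LIM-homeodomain transcription factor of cortical progenitors (ENSMUSG00000000247.12), was at 316 and 287 CPM in control and 239 and 247 CPM in Lhx2 cKO (log2 fold change -0.31, SE 0.0976, adjusted p 0.0191), or 80.7% of control. The call was lost without control 1 (adjusted p 0.176), without Lhx2 cKO 1 (0.102) and without Lhx2 cKO 2 (0.0538). Total counts ranged from 22294237 to 24609627 per library, so that 3 counts correspond to 0.122 to 0.135 CPM, far below the genes described here. This floor covers counting error only.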

How the data were processed

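Polyadenylated RNA of 2 control and 2 Lhx2 cKO libraries was counted per gene by the authors, and the deposited counts are whole numbers. The submitters' processing notes name Trim Galore, Subread, featureCounts, edgeR and mm39, without versions or settings; the use of strand and the annotation are not given in the sources used here. The authors' log2 fold change and log2 CPM, p-value and adjusted p-value, and -log10 columns were deposited beside the counts, with gene lengths. The deposited p-value columns were used only where the authors' table is named.

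Counts were tested with edgeR 4.0.16 (R 4.3.3): TMM, filterByExpr (minimum count 10), quasi-likelihood test of Lhx2 cKO against control, two-sided, Benjamini-Hochberg adjustment over 13288 genes. CPM are scaled with TMM. A gene is called, or said to fall or rise, at an adjusted p under 0.05. SE is the absolute log2 fold change over the square root of F, and 95% intervals use the t distribution. The common biological coefficient of variation was 8.27%. Replicates were distinct libraries: their chi-square per degree of freedom was 13.9 in control and 14.3 in Lhx2 cKO. The method was tested on simulated data. Exon overlaps came from GENCODE M21 (GRCm38), a different build from mm39, and were matched by gene identifier.

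The genes, role lists and marker lists were chosen with earlier results of these data known. Values per library are given for the 3 smallest and 2 largest p of each role list and for the 4 smallest p of the wider list (1 of them is not reported here); the E2F genes of that list and 2 markers per list, with 6 further markers, are given by log2 fold change. Alternatives were RLE and upper-quartile factors, library totals, no filter, a mean count of at least 50, DESeq2 1.42.0, limma-voom (limma 3.58.1), the replicate number as a block and leaving out each library; M21 transcript lengths were added after seeing the data.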

Additional observations from a re-analysis of the deposited data

How the results depend on the processing

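With all 4 libraries, the 22 falls were the same genes under RLE factors, upper-quartile factors, library totals, both other filters, limma-voom and the replicate block, and DESeq2 called 18 of them. Under every alternative run, leaving out libraries included, 11 genes were called: Brca1, Clspn, Dut, Gmnn, Mcm2, Mcm3, Pole2, Rrm2, Tipin, Tk1 and Uhrf1. When 1 library is left out, the lone library of its group is assumed to vary like the others. The fits that left out 1 library gave 15 to 21 called members, 1633 to 2396 called genes in all, 8 to 15 called genes of the wider list, and log2 fold changes of -0.376 to -0.250 for Lhx2. The medians then ranged from -0.350 to -0.256 over the 57 genes, from -0.394 to -0.329 for origin, from -0.203 to -0.163 for fork and from -0.554 to -0.416 for nucleotide supply. The cause was not tested.

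Some genes not called with all 4 libraries changed sign; of these, Brca2 was called in 1 fit (-0.513, adjusted p 0.0369, without Lhx2 cKO 1). Over the fits that left out 1 library, log2 fold changes ranged from -0.426 to 0.037 (Orc2), -0.726 to 0.014 (Cdc6), -0.010 to 0.155 (Mcm6), -0.085 to 0.073 (Pola2), -0.304 to 0.065 (Prim2), -0.024 to 0.070 (Pold2), -0.046 to 0.007 (Pcna), -0.174 to 0.077 (Rfc2), -0.124 to 0.016 (Chaf1b), -0.513 to 0.034 (Brca2), -0.110 to 0.110 (E2f5) and -0.203 to 0.074 (E2f7). Pola2 was 0.001 with upper-quartile factors and 0.005 with a mean count of at least 50, and E2f5 was -0.003 with RLE factors and DESeq2 and -0.009 with library totals.

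The labels do not say whether libraries with the same replicate number belong together. Over genes, deviations of same-numbered libraries correlated at 0.001. With 2 libraries per group this value cannot decide whether they were paired. With the replicate block, all genes called came to 2874, where the fit without it gave 2758, and 22 of the 57 members were among them.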

Other observations

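Lists added after the values were seen cover the copying of mitochondrial DNA, polymerases that bypass damaged bases, and cohesin. Of 9 genes that copy mitochondrial DNA, 0 were called in either direction by edgeR, DESeq2 or limma-voom. Among them 2 had an unadjusted p under 0.05 and a lower level, and the median log2 fold change was 0.02. Over all genes, edgeR called 9.17% lower and 11.6% higher, shares that give few calls in a list of 9. Polg, the mitochondrial polymerase, was at 97.1 and 96.2 CPM in control and 85.8 and 78.4 CPM in Lhx2 cKO (log2 fold change -0.24, SE 0.0966, adjusted p 0.0785), and Twnk, its helicase, at 41.2 and 38.9 against 39.3 and 36 CPM (-0.09). Of 7 polymerases and partners that bypass damaged bases, 0 were called by any of the 3 tools, and the same shares give few calls among 7 genes. An unadjusted p under 0.05 was seen for 1, Mad2l2 at 89.8 and 94.9 against 114 and 98.8 CPM (0.20). The median was -0.04. Polg shares exonic bases with Fanci on the other strand.

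Cohesin, the ring that holds the copied chromatids together, had 3 of 12 genes lower and 0 higher, against 9.17% lower over all genes. DESeq2 called 2 of the 12 lower and limma-voom 3. For the rise, DESeq2 and limma-voom called 0 and 0 had an unadjusted p under 0.05. Nipbl, the loader, was at 119 and 115 CPM in control and 93.1 and 89.8 CPM in Lhx2 cKO (log2 fold change -0.36, SE 0.0948, adjusted p 0.00474). Wapl, which releases cohesin, was at 47.6 and 46.1 CPM in control and 39.4 and 34 CPM in Lhx2 cKO (log2 fold change -0.35, SE 0.106, adjusted p 0.0138). Cdca5 (sororin), which protects cohesin after replication, was at 8.99 and 6.56 CPM in control and 3.91 and 5.44 CPM in Lhx2 cKO (log2 fold change -0.73, SE 0.226, adjusted p 0.0163). The ring subunits Smc1a (0.13), Smc3 (-0.05) and Rad21 (-0.20) did not pass the test.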
